A study of Homo sapiens with 3 samples.

Results

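The genes described here encode the proteasome, its regulators and its assembly factors. They are the 50 protein-coding genes whose symbols start with PSMA, PSMB, PSMC, PSMD, PSME, PSMF or PSMG and a digit, out of 20098 protein-coding genes that GENCODE places on the autosomes and chromosome X of hg19. The symbol rule also takes in PSMC3IP, which encodes a meiotic recombination factor, and PSME3IP1, which encodes a binding partner of PSME3, although neither is a proteasome subunit. ChIP-seq of BMAL1, an activator of the circadian clock, and of MAX was made in MDA-MB-231, an established adherent line from a metastatic human breast adenocarcinoma. All chromatin, the input included, came from cells fixed in 1% formaldehyde for 10 min, and the labels name no other treatment and no time of day. The 1 BMAL1 library, the 1 MAX library and the 1 input library have no replicates, so no value has a replicate check, no test was made, and every comparison sets values of these libraries side by side. The MAX list held 13650 peaks from 11545865 tags, and the BMAL1 list held 756 peaks from 13866783 tags.

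The proteasome degrades proteins that carry ubiquitin. Its core particle is a barrel of alpha and beta subunits with the proteolytic sites inside, and its regulatory particle recognises, unfolds and feeds in the substrates by means of a ring of ATPases and a set of non-ATPase subunits. Assembly chaperones build both particles, and alternative activators can replace the regulatory particle. Cells that need more proteasome raise the transcription of many of these genes together, chiefly through the factors NFE2L1 and NFE2L2, which recognise the antioxidant response element TGACNNNGC. MAX is the shared partner of the MYC and MXD families and of MNT, and its dimers, like those of BMAL1 with CLOCK, recognise the E-box CACGTG.

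A gene was counted as having a promoter peak when the summit of a listed peak lay within 1 kb of any annotated transcription start site (TSS) of that gene. MAX had such a peak at 30 of the 50 proteasome genes (60.0%), against 36.4% of all protein-coding genes. BMAL1 had one at only PSMD9 and PSME3, which is 4.00% of the 50 genes, against 1.85% of all protein-coding genes. Both genes also had a MAX peak, and they held the highest MAX fold enrichment of the family. No summit was assigned to more than 1 proteasome gene.

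The sequences below are those of the E-boxes at the strongest summits of members, with a pair of summit windows without an E-box from other strong peaks. They were read from the plus strand of hg19, 5′ to 3′. PSMD9 and PSME3 are the only members bound by both factors. The window of PSMD9 (chr12:122326504-122326603) gives 100 bases around the MAX summit, with the E-box in capitals.
PSMD9: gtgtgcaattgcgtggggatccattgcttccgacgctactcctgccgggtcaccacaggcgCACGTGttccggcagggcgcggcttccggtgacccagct

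For PSME3 (chr17:40985360-40985389), PSMC4 (chr19:40476641-40476670), PSMB3 (chr17:36908744-36908773) and PSMB10 (chr16:67969573-67969602) the E-box is printed in capitals with 12 bases on either side. These are the other members with an E-box within 100 bp of their strongest MAX summit.
PSME3: ggctgcgcagcgCACGTGcacagcctcgca
PSMC4: ttggatcagcgcCACGTGgagaccttaccc
PSMB3: gtttcaccagccCACGTGcgcgcaggctcc
PSMB10: cagcgatgcaccCACGTGgccctggtacct

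PSMA5 (chr1:109969160-109969259) and PSMC3 (chr11:47448237-47448336) followed in the order of MAX fold enrichment and held no E-box form within 100 bp of the summit. The whole PSMC3 peak did hold 1 CACGTG, farther from its summit, and the whole PSMA5 peak held none. Their summit windows are printed for contrast, and in PSMC3 the capitals mark matches to the antioxidant response element.
PSMA5: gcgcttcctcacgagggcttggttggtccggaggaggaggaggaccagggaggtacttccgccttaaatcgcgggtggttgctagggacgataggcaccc
PSMC3: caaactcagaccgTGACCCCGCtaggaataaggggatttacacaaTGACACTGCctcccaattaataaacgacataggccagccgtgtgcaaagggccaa

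PSMD9 encodes a chaperone that helps assemble the ATPase ring of the regulatory particle. Its MAX peak (chr12:122326267-122326978) had the highest values of the family on every scale. The pileup, which is the number of 300 bp extended fragments that cover the summit, was 49 (exact Poisson 95% interval 36.3 to 64.8). The fold enrichment, which is this pileup divided by the local background of the input, was 34.3 (25.4 to 45.3) and exceeded that of 99.8% of MAX peaks. Intervals of this kind cover counting error only, and those of the fold enrichment take the input background as fixed. The summit lay 84 bp upstream of the nearest PSMD9 TSS, outside the gene, and 11 bp from the E-box shown above.

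The BMAL1 peak at PSMD9 (chr12:122326395-122326757) lay inside the MAX peak, with its summit 1 bp from the MAX summit. Its pileup was 21 (13.0 to 32.1) and its fold enrichment was 12.3 (7.63 to 18.8), above 65.2% of the BMAL1 list. A site near the top of the MAX list was therefore nearer to the middle of the BMAL1 list. A protein-coding gene annotated without a name that overlaps PSMD9 on the same strand started 161 bp from the MAX summit, and a noncoding gene on the other strand also started within 1 kb of it. The peak cannot be assigned to 1 of these genes from its position.

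PSME3 encodes a nuclear activator that opens the core particle without ATP or ubiquitin. Its MAX peak (chr17:40984977-40985672) had a pileup of 46 (33.7 to 61.4), close to that of PSMD9, with intervals that overlapped almost throughout. The fold enrichment of 19.5 (14.2 to 26.0) was lower than at PSMD9 because the input background was 2.36 fragments at PSME3 and 1.43 at PSMD9, and these intervals only just overlapped. The summit lay 3 bp from the E-box and 34 bp upstream of the nearest PSME3 TSS, in the annotated UTR of a transcript that starts farther upstream.

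The BMAL1 peak of PSME3 (chr17:40985171-40985615) had a pileup of 27 (17.8 to 39.3) and a fold enrichment of 9.51 (6.27 to 13.8), which was above 42.2% of the BMAL1 list. Its summit was 11 bp from that of MAX. A TSS of BECN1, an autophagy gene transcribed in the opposite direction, lay 13 bp from the MAX summit and was closer than any TSS of PSME3. Over all protein-coding genes with promoter peaks of both factors, 355 in number, the median MAX fold enrichment was 16.4, so both proteasome genes lay above it. Among all 372 genes with a BMAL1 promoter peak, 95.4% also had a MAX promoter peak, and the median BMAL1 fold enrichment was 11.3, between the values of PSMD9 and PSME3.

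**Figure D1:**
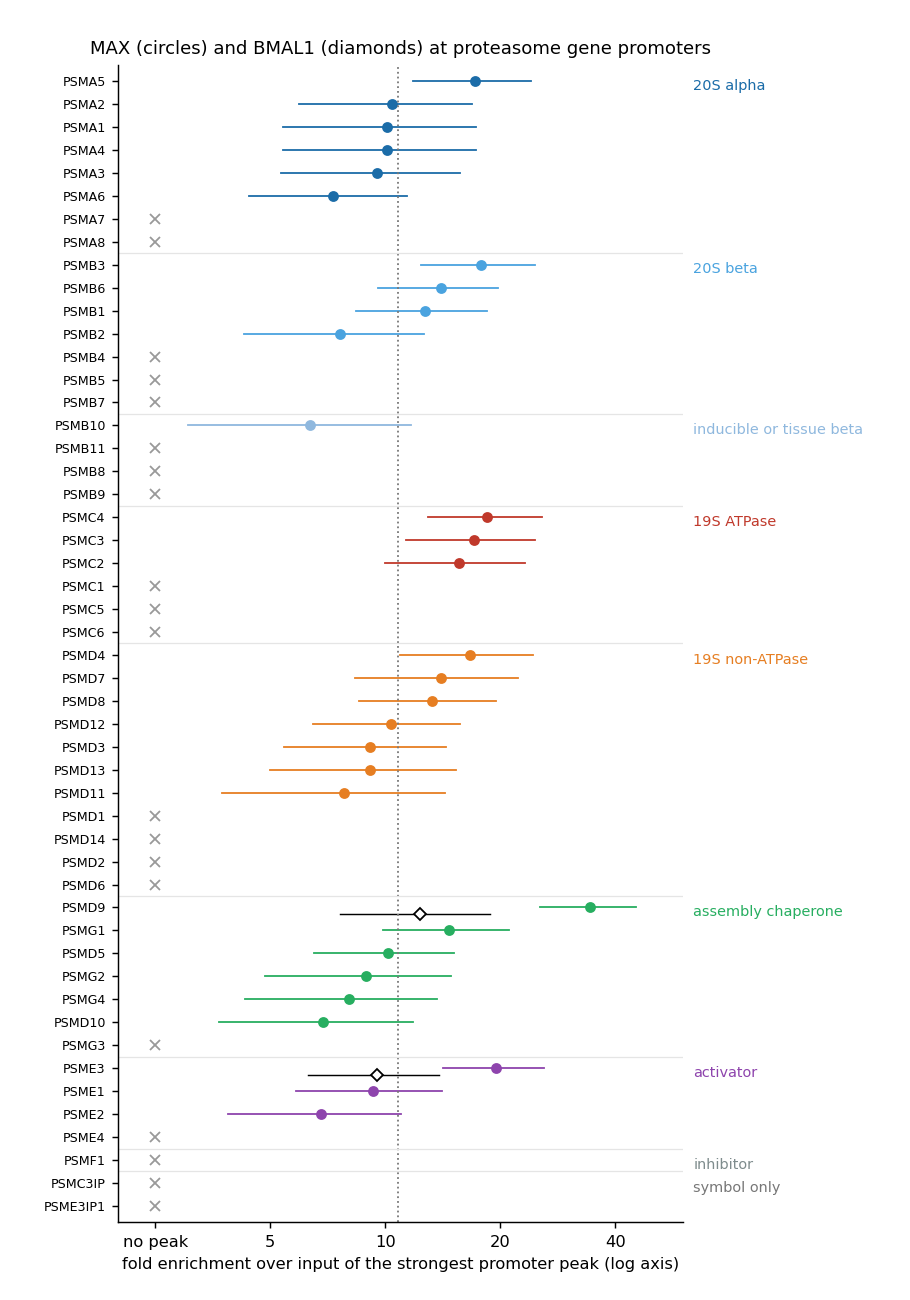
Fold enrichment over input (log axis) of the strongest promoter peak of each of the 50 genes, grouped by role, with MAX as filled circles, BMAL1 as open diamonds and crosses for genes without a listed MAX promoter peak. Bars are exact Poisson 95% intervals of the pileup divided by the background, and the dotted line marks the median of all protein-coding genes with a MAX promoter peak (10.8). PSMD9 stands at 34.3, and every role class except the inhibitor and the genes matched by symbol alone holds both bound and unbound members.

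The core particle is built of alpha and beta rings. Of its 14 constitutive subunit genes, 10 had a MAX promoter peak. For this and every class count below, the share over all protein-coding genes was 36.4%. The classes are small, and none was tested against that share. The alpha ring gates the entry of substrates, and 6 of its 8 genes, PSMA8 included, had a peak, with fold enrichment from 7.31 at PSMA6 to 17.1 at PSMA5. The MAX pileup at PSMA5 was 33 (22.7 to 46.3), and the summit lay 140 bp upstream of the TSS. PSMA2, PSMA1, PSMA4 and PSMA3 ranged between 9.52 and 10.4, a span far smaller than their counting intervals. PSMA7 had no peak by this rule, but a MAX summit with a fold enrichment of 8.56 lay 1165 bp from its nearest TSS, just outside the window. PSMA8, whose product replaces an alpha subunit in male germ cells, had its nearest MAX summit 86379 bp away.

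The beta ring carries the proteolytic sites, and 4 of its 7 constitutive genes had a MAX peak. PSMB3, a structural subunit, had a pileup of 35 (24.4 to 48.7) and a fold enrichment of 17.8 (12.4 to 24.7), with the summit 175 bp upstream of the TSS. PSMB6, which carries the caspase-like site, had a pileup of 32 (21.9 to 45.2) and a fold enrichment of 13.96. PSMB2 had 7.62. The genes of the other proteolytic sites, PSMB5 for the chymotrypsin-like and PSMB7 for the trypsin-like activity, had no promoter peak, and neither did PSMB4. The nearest MAX summits lay 21080 bp from a TSS of PSMB5, 7869 bp from PSMB7 and 52484 bp from PSMB4.

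PSMB1 had a pair of MAX peaks. The stronger peak (pileup 27, fold enrichment 12.7) was centred 931 bp upstream of the PSMB1 TSS but 64 bp from a TSS of the divergent gene TBP, which encodes the TATA-binding protein. The weaker peak was centred 96 bp upstream of the PSMB1 TSS, with a pileup of 19 (11.4 to 29.7) and a fold enrichment of 6.99. The value that belongs to the PSMB1 start site by distance is therefore the lower one.

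Interferon-inducible and tissue-restricted beta subunits replace the constitutive catalytic ones. Of these 4 genes, PSMB8, PSMB9 and the thymic PSMB11 had no MAX promoter peak, and their nearest summits lay 50027, 38609 and 14098 bp away. PSMB10 had the weakest peak of the family, with a pileup of 10 (4.80 to 18.4), a fold enrichment of 6.35 (3.05 to 11.7) and a -log10 p of 6.05. This peak (chr16:67969442-67969854) was counted through an alternative TSS and lay 1078 bp downstream of the canonical one. It did not pass the p-value threshold of 1e-08 given in the methods of the study. The peaks of PSMD10 and PSMD11 and the weaker peak of PSMG4 did not pass it either.

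In the ATPase ring of the regulatory particle, which unfolds substrates, 3 of the 6 genes had a MAX peak and the other 3 had none. The 3 bound genes lay in a narrow range above the genome-wide median. PSMC4 (chr19:40476447-40477206) had a pileup of 35 (24.4 to 48.7) and a fold enrichment of 18.5 (12.9 to 25.7). PSMC3 (chr11:47447667-47448691) had a pileup of 28 (18.6 to 40.5) and a fold enrichment of 17.0 (11.3 to 24.6). PSMC2 (chr7:102984269-102985412) had a pileup of 24 (15.4 to 35.7) and a fold enrichment of 15.6 (10.0 to 23.2). The intervals of all 3 overlapped.

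The position of these summits differed. Those of PSMC4 and PSMC3 lay 367 and 263 bp upstream of a TSS. That of PSMC2 lay 2942 bp upstream of the canonical TSS, in an intron of a longer transcript, and only 35 bp from a TSS of DNAJC2, which encodes a ribosome-associated chaperone. For PSMC1, PSMC5 and PSMC6 the nearest MAX summit was 115852, 11831 and 6452 bp away.

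The non-ATPase subunits recognise and deubiquitinate substrates and hold the particle together. Of their 11 genes with a PSMD symbol, 7 had a MAX peak. PSMD4, a ubiquitin receptor, was the highest with a pileup of 26 (17.0 to 38.1) and a fold enrichment of 16.7 (10.9 to 24.4), 43 bp upstream of a TSS. PSMD7, a lid subunit, had a pileup of only 18 (10.7 to 28.4) but a fold enrichment of 14.03, since the background there was at the genome-wide level of 1.28. PSMD7 had a second, weaker peak 292 bp downstream of a TSS, with a fold enrichment of 10.1. PSMD8, another lid subunit, had a pileup of 25 (16.2 to 36.9) and a fold enrichment of 13.2. PSMD12, PSMD3, PSMD13 and PSMD11 ranged from 10.3 down to 7.79.

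PSMD1 and PSMD2, the large scaffolds of the base, PSMD6 and the deubiquitinase gene PSMD14 had no promoter peak. Their nearest MAX summits lay between 3939 and 7064 bp from a TSS. Together with the ATPases, 10 of the 17 regulatory particle genes with a PSM symbol had a MAX peak. ADRM1 and SEM1, which encode further subunits of this particle, lie outside the symbol rule and had no MAX promoter peak. Over both particles the count was 20 of 31 constitutive genes with a PSM symbol (64.5%), against 36.4% of all protein-coding genes. Bound and unbound genes were found in each ring and each subcomplex.

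Among the assembly chaperones with a PSM symbol, 6 of 7 genes had a MAX peak. Below PSMD9, PSMG1, a chaperone of the alpha ring, had a pileup of 29 (19.4 to 41.6) and a fold enrichment of 14.7 (9.86 to 21.1), 56 bp upstream of a TSS. PSMD5, PSMG2, PSMG4 and PSMD10 ranged from 10.2 to 6.88. PSMG4 had a second peak 706 bp downstream of a TSS, with a fold enrichment of 5.08 and an E-box within 100 bp of its summit. The -log10 p of this second peak was 6.63. Only PSMG3 had none, with a MAX summit of fold enrichment 9.35 at 2483 bp from a TSS.

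Among the activators, PSME1 and PSME2 encode the subunits of an interferon-inducible activator. They had fold enrichments of 9.31 and 6.77, both below that of PSME3 (19.5). The pileups were 22 (13.8 to 33.3) at PSME1 and 16 (9.15 to 26.0) at PSME2. Neither interval reached that of PSME3 (33.7 to 61.4), although that of PSME1 came close. PSME4, the gene of a nuclear activator, had no peak, and neither did PSMF1, the gene of a proteasome inhibitor, which was the most distant of all with its nearest MAX summit at 159136 bp. PSMC3IP and PSME3IP1 also had none.

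**Figure D2:**
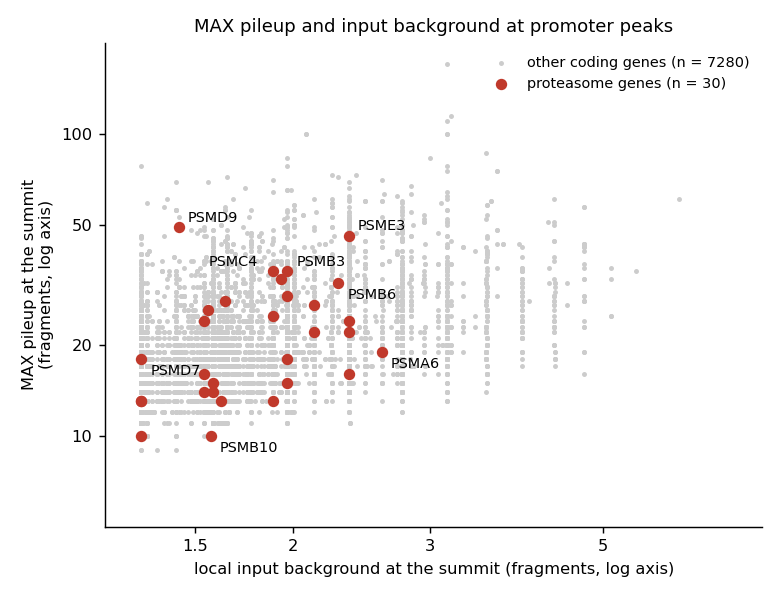
MAX pileup at the summit against local input background, both in fragments on log axes, for the strongest promoter peak of 30 proteasome genes (red) and the other protein-coding genes with such a peak (grey). Members span pileups from 10 to 49 and backgrounds from 1.28 to 2.60. PSMD9 and PSME3 have similar pileups at different backgrounds.

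At the lower end, the 5 members with the weakest MAX fold enrichment were PSMB2, PSMA6, PSMD10, PSME2 and PSMB10. The order partly reflected the input. PSMA6 had a pileup of 19 (11.4 to 29.7), more than PSMD7 with 18, but its background of 2.60 was the highest among the members, so its fold enrichment was 7.31 against 14.03. Of the 10 members highest in fold enrichment, 8 were also among the 10 highest in pileup. For every pair of neighbours in the order of fold enrichment, the counting intervals overlapped.

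With all listed peaks, the strength of MAX at bound members was like that at other bound promoters. The median fold enrichment of the 30 bound proteasome genes was 10.2 (quartiles 8.94 and 15.4), against 10.8 (8.57 and 13.9) for all 7310 protein-coding genes with a MAX promoter peak. The median pileup was 20.5 against 19. Of the 30 members, 13 lay above the genome-wide median.

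**Figure D3:**
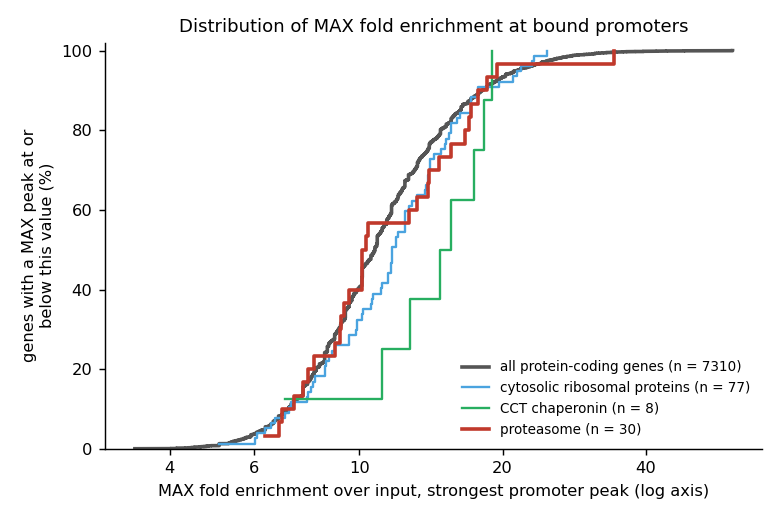
Cumulative share of genes with a MAX promoter peak (percent) against the MAX fold enrichment of their strongest peak (log axis). The curve of the 30 proteasome genes runs close to that of all 7310 protein-coding genes, with medians of 10.2 and 10.8, and that of the 8 CCT chaperonin genes lies to the right with a median of 15.2.

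The number of start sites and the base composition of these genes also differed from those of all genes, and their part in the count was not tested. Proteasome genes have more annotated start sites, with a median of 8 per gene against 5 over all protein-coding genes, and so a wider search window. With 1 canonical TSS per gene, 28 of 50 members (56.0%) had a MAX peak, against 32.0% of all genes. Their promoters are also rich in CpG. In the 300 bp on either side of the canonical TSS, 46 of the 50 members had an observed over expected CpG ratio of at least 0.6, and of these 27 (58.7%) had a MAX peak, against 48.9% of all protein-coding genes with such a promoter. This restriction was chosen after the data were seen. Bound and unbound members had similar median CpG ratios of 0.779 and 0.821.

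The share also depended on the rule for a promoter peak, for members and background alike. Summits within 300 bp of a TSS gave 56.0% of members and 29.1% of all genes, and peaks with at least 1 bp within 300 bp, as in the methods of the study, gave 60.0% and 33.8%. With TSSs of protein-coding transcripts only, the shares were 60.0% and 35.1%. At a p-value of 1e-08 they were 54.0% and 34.1%, and at 1e-12 they were 36.0% and 23.5%. For BMAL1 the same 2 genes were found by every rule, against 1.36% of all genes with summits within 300 bp, 1.64% with at least 1 bp within 300 bp, 1.72% with protein-coding transcripts, 1.47% with canonical TSSs, 1.82% at 1e-08 and 1.40% at 1e-12. For MAX, the members' share was above that of all genes under each of these rules. For BMAL1 it rested on the same 2 genes each time. The rules draw on the same peak lists and are not separate checks.

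Other gene families of protein synthesis and folding were covered more fully. MAX had a promoter peak at 77 of 86 cytosolic ribosomal protein genes (89.5%) and at all 8 genes of the CCT chaperonin (100%), against 60.0% of the proteasome genes. BMAL1 had none at either family, with 1.85% of all protein-coding genes bound. The median MAX fold enrichment was 11.7 at the ribosomal protein genes and 15.2 at the chaperonin genes. These differences between lists are given as counts and were not tested.

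**Figure D4:**
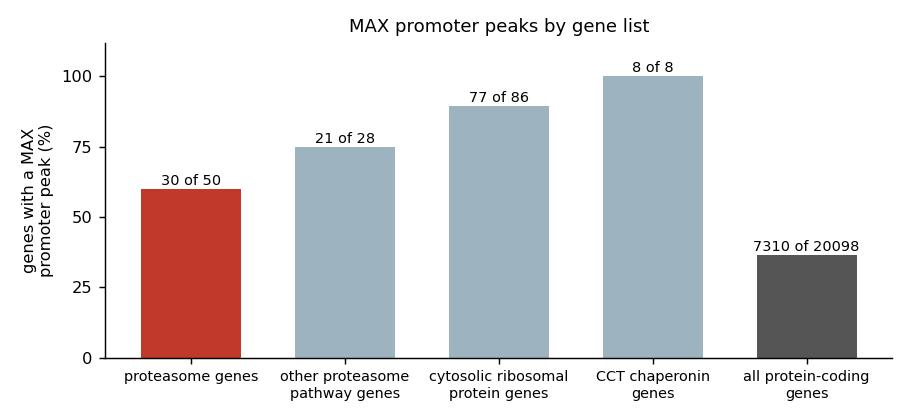
Share of genes with a MAX summit within 1 kb of a TSS (percent), with the counts above each bar. Proteasome genes (30 of 50) stand between all protein-coding genes (7310 of 20098) and the other lists.

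Genes that work with the proteasome without carrying a PSM symbol were taken as a list of 28, comprising accessory subunits, ubiquitin genes, shuttle factors, activating enzymes and the factors that control proteasome transcription. MAX had a promoter peak at 21 of them (75.0%, against 36.4% of all protein-coding genes) and BMAL1 at 0 of them, against 1.85%. The highest was UBA1, the main ubiquitin-activating enzyme, with a pileup of 33 (22.7 to 46.3) and a fold enrichment of 25.7. NFE2L1, which drives the recovery of proteasome genes when the proteasome is inhibited, followed with a pileup of 30 (20.2 to 42.8) and a fold enrichment of 16.6, its summit 512 bp upstream of a TSS. NFE2L2 had 11.4. PAAF1, a chaperone of the ATPase ring, had 13.3, and the proteasome-bound deubiquitinases USP14 and UCHL5 had 13.3 and 12.9.

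No MAX promoter peak was listed for POMP, the maturation factor of the core particle, or for the regulatory particle subunits ADRM1 and SEM1. DDI2, the protease that activates NFE2L1, the segregase gene VCP, PITHD1 and UBQLN2 also had none. The pathway and ribosomal lists share 2 genes.

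Most MAX summits lay just upstream of the start site. Of the 30 strongest member summits, 25 (83.3%) were upstream of the nearest TSS, 4 were downstream and 1, at PSMG4, was on it. Over all protein-coding genes with a MAX promoter peak the upstream share was 62.7%, and it was 50.6% for the ribosomal protein genes. The median position was 54 bp upstream for members and 37 bp upstream for all genes. Of the members, 20 (66.7%) had the summit within 100 bp of a TSS, against 46.0% of all genes. These distances are to the nearest annotated TSS, and members have a median of 8 TSSs per gene against 5 over all genes. The part of TSS number in these shares was not tested. Among these 20 members, the summits of PSMD9, PSMA1, PSMG2, PSMD11 and PSMB10 lay more than 100 bp from the canonical TSS. The bound members with no TSS within 100 bp of the summit were necessarily also farther than that from the canonical one.

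**Figure D5:**
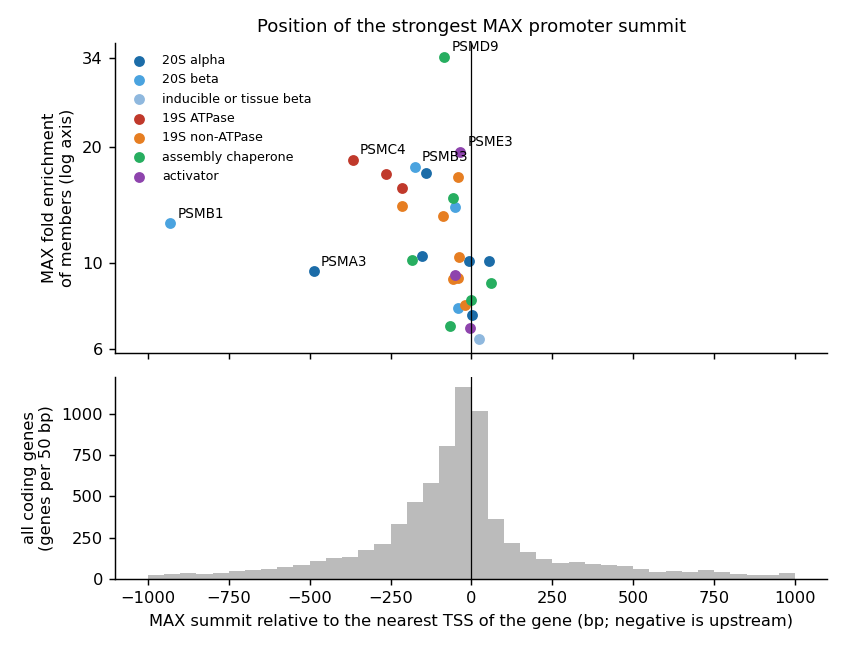
Position of the strongest MAX promoter summit relative to the nearest TSS of the gene in bp (negative is upstream), with the fold enrichment of the 30 members on a log axis by role (top) and the number of protein-coding genes per 50 bp (bottom). Of the 30 members, 25 lie upstream, and PSMB1 at 931 bp is the most distant.

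For 11 of the 30 bound members, a TSS of another protein-coding gene also lay within 1 kb of the strongest summit. In 6 of them (PSME3, PSMC2, PSMB1, PSMA2, PSMD13 and PSMD10) the other TSS was the closer one. The partners were BECN1, DNAJC2, TBP, MRPL32, SIRT3 and ATG4A, at 13, 35, 64, 38, 22 and 53 bp from the summit. The peak lists cannot say which gene of such a pair, if either, a site serves. Neither count is set beside its share over all genes with a MAX promoter peak, so neither is read as particular to the members. Without these 11, the other 19 bound members had a median fold enrichment of 10.3, close to that of all 30.

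E-boxes were searched in the 200 bp centred on each summit. CACGTG reads the same on both strands, and it was present at 6 of the 33 distinct MAX summits of the members (18.2%), against 20.5% of the 7285 MAX summits at protein-coding promoters. These were the strongest summits of PSMD9, PSME3, PSMC4, PSMB3 and PSMB10 and the weaker one of PSMG4. At their strongest summits, the 4 members with the highest MAX fold enrichment all held an E-box, and of the other 26 bound members 1 did. This contrast depended on the window. In 100 bp, PSMC4, PSMB3 and PSMB10 dropped out, and in whole peaks PSMC3, PSMC2 and PSMA3 also held CACGTG. The E-box lay 11 bp from the summit at PSMD9, 3 bp at PSME3, 47 bp at PSMC4, 58 bp at PSMB3 and 85 bp at PSMB10. Among these strongest summits, it was thus closest at the genes that BMAL1 also bound. The weaker PSMG4 summit also kept its E-box in the 100 bp window, and its distance was not measured.

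Related elements were searched in the same windows. CACGTT or its reverse complement AACGTG was found at 1 of the 33 summits (3.03%), that of PSMD4, against 6.53% of protein-coding promoter summits. CACGCG or its reverse complement CGCGTG was found at 0 of 33, against 18.7%, and CATGTG or its reverse complement CACATG at 0 of 33, against 9.06%. In all, 26 of the 33 summits (78.8%) held none of these 4 forms, against 53.4% of the protein-coding promoter summits. Matches were counted for each motif whether or not they overlapped another one, and a missing match says only that these letters are not in the 200 bp window. The same forms were counted in the 601 bp centred on the canonical TSS. CACGTT, on either strand, was found in 14.0% of the 50 member promoters, against 10.0% of all protein-coding promoters. For CACGCG, on either strand, the shares were 20.0% and 23.9%. CATGTG, on either strand, was found in 3 of the 50 member promoters, against 14.9% of all.

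The antioxidant response element TGACNNNGC or its reverse complement GCNNNGTCA was found at 11 of the 33 summits (33.3%), against 11.9% of protein-coding promoter summits. At PSMD9 and at PSMC3 a match covered the MAX summit itself, and at PSMD9 the flanking match TGACCCAGC lay 40 bp away. The strongest summits with a match were those of PSMD9, PSMB3, PSMC3, PSMG1, PSMB6, PSMD12, PSMD5, PSME1, PSMD3 and PSMB10, of which 7 held no CACGTG. In the 601 bp centred on the canonical TSS, 16 of 30 members with a MAX peak (53.3%) and 10 of 20 without (50.0%) held a match, against 23.4% of all protein-coding promoters. The CCAAT box or its reverse complement ATTGG was found at 11 of the 33 summits (33.3%) against 22.8%, and in 54.0% of the 50 member promoters against 48.2% of all.

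Across promoters, an E-box went with MAX binding in the background set. In the same 601 bp, 53.7% of the 2530 protein-coding promoters with CACGTG had a MAX peak, against 33.9% of those without. Of the members, 5 held CACGTG there and 4 of these had a MAX peak, while 26 of the 45 members without it (57.8%) also had one. Most MAX-bound proteasome promoters therefore had no canonical E-box near the start site or under the summit. The same held for bound promoters in general. In these 601 bp, 13.3% of the 30 bound members held CACGTG, against 18.6% of all 7310 bound protein-coding genes.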

How the data were processed

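The authors aligned single reads to hg19 with BWA 0.6.2 and called peaks with MACS2 2.0.9 (versions also in the submitters' processing notes), separately for each antibody, against the shared input of 29308882 tags. Per the file headers, tags were extended to 300 bp, with at most 2 duplicate tags for BMAL1 and 1 for MAX. The deposited columns give the pileup signal, the fold enrichment ratio of pileup to input background, and the -log10 p-value and q-value. The headers record a p cutoff of 1e-05, the methods 1e-08, and all listed peaks were used, so a gene without a peak had none past that cutoff at this depth. The signal between peaks was not analysed here.

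Members were assigned by GENCODE release 44 mapped to the assembly of hg19. Each gene took its strongest peak by fold enrichment. Pileups carry exact Poisson intervals. Members, gene lists and rules for named genes were chosen with earlier results of these data known. Named were members with a BMAL1 peak, the 12 highest and 5 lowest in MAX fold enrichment, and all without a MAX peak. Other members are named to account for the whole family, with their values seen. Windows, TSS sets, p thresholds and E-box definitions were varied. Steps were tested on simulated data. Python 3.11.15, numpy 2.4.6, pandas 2.3.3, scipy 1.17.1 and pysam 0.24.0 were used. The values of 1 gene of the pathway list are not reported here.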

Additional observations from a re-analysis of the deposited data

How the results depend on the processing

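The count of proteasome genes with a MAX promoter peak stayed between 27 and 30 under 7 of its 8 alternatives, the restriction to CpG-rich promoters included, and fell to 18 at a p-value of 1e-12. The count with a BMAL1 peak was 2, and the genes were PSMD9 and PSME3, under all 6 alternatives. The median MAX fold enrichment ranged from 10.1 to 14.4, the highest value coming from the 18 members left at 1e-12. There the median over all protein-coding genes with a peak was 12.7. CACGTG was found at 6 of 33 summits in 200 bp, at 3 in 100 bp and at 9 in whole peaks. At a p-value of 1e-08 it was found at 4 of 29 summits in 200 bp. Of the other pathway genes, 16 kept a summit within 300 bp and 20 a peak at 1e-08. No paired analysis was possible because each antibody has 1 library. Pileups of 10 to 49 fragments limit the precision, and weaker sites may be unlisted at this depth.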
